A study of Mus musculus with 12 samples.

Results

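The 10 genes described here are the Notch receptors Notch1, Notch2 and Notch3, the ligands Dll1, Jag1 and Jag2, and the Hes and Hey transcription factors Hes1, Hes6, Hey1 and Heyl. Every array probe whose accession belongs to one of these genes was taken, which gave 12 of the 39429 probes on the array, 1 for each gene except Notch1 and Notch2, which have 2 each; they are 10 of 20659 genes named on the array through RefSeq. All 12 were bright enough to be tested. The cells were C2C12, a mouse myoblast line that fuses into myotubes, harvested 72 h after transfection and measured on single-colour Agilent arrays. There were 12 array files in 4 groups of 3: a negative control, the plasmid pcDNA3.1, the plasmid pcDNA3.1-MEG3 and an siRNA. The submitters' design names overexpression and knockdown of MEG3, a long non-coding RNA, as its aim. Sample titles call the siRNA arrays MEG3 knockdown and the pcDNA3.1-MEG3 arrays MEG3 overexpression. They call the pcDNA3.1 arrays pat1, a name the labels do not explain. The labels do not say what the negative control consisted of, what the siRNA sequence was, whether pcDNA3.1 was empty, or whether replicates came from separate cultures. The p-values therefore cover the scatter among these arrays, which could be technical alone.

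Notch receptors are activated by ligands of the Delta and Jagged families on neighbouring cells. Cleavage then frees the receptor's intracellular domain, which joins the DNA-binding protein RBPJ in the nucleus and switches on Hes and Hey repressors. In muscle, Notch activity is known for holding progenitors undifferentiated, with Hey1 and Heyl among its direct targets.

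Several features of the arrays bear on every value below. The slide of each group was taken from an earlier report on these data. By it, the negative control lies on slide 1, both plasmid groups on slide 2 and the siRNA on slide 3. For every comparison except that between the plasmid groups, slide and treatment therefore cannot be told apart. In the plasmid and siRNA groups, replicates 1 and 3 share a slide position under different scans, so that the 12 files cover 9 positions. These replicates differed by 0.162 to 0.265 times the spot noise, and those of the negative control by 0.977 times. Replicates 1 and 3 were averaged in every group, leaving 8 samples, 2 per group. In the negative control they lay at different slide positions. Their 0.977 is like the 0.955 and 1.01 of replicates 1 and 2 in the plasmid groups, which were kept apart. With negative control replicates 1 and 3 apart (9 samples), no member call was lost. The siRNA differences from the negative control then passed for Notch1 (limma adjusted p = 0.0239), its dimmer probe (0.0218) and Notch3 (0.0456). A value within the second scan rereads the positions of the first and is no independent check. Where a left-out sample leaves a group with 1, that sample is assumed to vary like the other groups. For a group outside a comparison, leaving out either of its samples gives the same fit, so the alternatives counted below are not all separate. Negative control replicate 2 stood apart from the others of its group, at 2.95 to 3.14 times the spot noise. The siRNA replicate 2 differed from replicates 1 and 3 by 1.46 and 1.48 times. It had 68% of probes well above background, against 61.2% on each of those 2 arrays. The siRNA arrays had 232 to 431 probes with every spot marked as outlying, against 23 to 107 elsewhere. The Meg3 probes go against the plasmid labels: the brightest, scaled as below, read -2.43 on the arrays labelled pcDNA3.1 and -7.17 on those labelled pcDNA3.1-MEG3, at least 18.9-fold dimmer (adjusted p = 0.0925), and it was well above background on 0 of the 3 siRNA arrays and 1 of the 3 negative control arrays. Directions between the plasmid groups are thus those of the labels only, and a knockdown of Meg3 could not be checked. In whole-culture RNA, fewer cells of a type and less RNA per cell cannot be told apart.

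The 3 ligands show the contrast that runs through the results: Dll1 and Jag2 were higher on the siRNA arrays and Jag1 did not pass the test with all 8 samples. Their upstream sequences are shown for that reason, the 250 bases before the most upstream annotated start of each gene, 5′ to 3′ on the gene's strand, from RefSeq's GRCm38.p6 promoter set. Capitals mark E-boxes, CANNTG, the letters bound by MyoD-type factors, searched on both strands (the motif is its own reverse complement).
Dll1, chr17:15376933-15377182, minus strand: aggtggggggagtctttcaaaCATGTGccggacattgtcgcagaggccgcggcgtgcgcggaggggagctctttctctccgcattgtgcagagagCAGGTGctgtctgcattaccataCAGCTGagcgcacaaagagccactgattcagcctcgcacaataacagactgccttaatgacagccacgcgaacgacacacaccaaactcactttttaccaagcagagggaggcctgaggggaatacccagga
Jag1, chr2:137116521-137116770, minus strand: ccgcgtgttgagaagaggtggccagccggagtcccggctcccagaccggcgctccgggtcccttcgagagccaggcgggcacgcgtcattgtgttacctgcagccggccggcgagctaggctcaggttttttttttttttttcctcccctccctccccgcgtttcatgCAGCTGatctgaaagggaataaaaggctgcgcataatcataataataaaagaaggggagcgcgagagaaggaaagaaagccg
Jag2, chr12:112929496-112929745, minus strand: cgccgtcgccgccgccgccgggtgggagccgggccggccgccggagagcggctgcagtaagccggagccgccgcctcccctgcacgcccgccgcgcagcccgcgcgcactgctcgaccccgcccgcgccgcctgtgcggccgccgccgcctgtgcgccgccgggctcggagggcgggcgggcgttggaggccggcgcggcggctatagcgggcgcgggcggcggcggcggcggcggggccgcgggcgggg
The Dll1 window holds 3 E-boxes, the Jag1 window 1 and the Jag2 window 0, against at least 1 in 66.2% of 32851 windows of the same length. The Jag2 window is the richest of these in G and C, at 87.2%, against 56.0% for Dll1, 57.2% for Jag1 and a median of 52.4% over all windows. The core RBPJ letters GTGGGAA, on either strand, are in 0 of the 7 member windows held by the set and in 5.42% of all windows. The Hes and Hey letters CACGNG, on either strand, occur 1 time in the Dll1 window, 2 times in that of Jag1 and 0 times in that of Jag2, and at least 1 time in 23.5% of all windows; CACGTG would count under both E-box and CACGNG. A match is a description of the letters and not a binding site. Hes1, Hey1 and Heyl are not among the sequences used here.

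The siRNA arrays had the highest mean level of 7 of the 10 genes, all 3 ligands and all 4 Hes and Hey factors. The negative control had the highest of the 3 receptors. Several of these ranks were slight: the gap to the next group was 0.04 for Jag1, 0.13 for Hes1 and 0.27 for Heyl. For Notch2 and Notch3 it was 0.01 and 0.06, and samples overlapped for all of these. This count has no share over all genes beside it. Against the negative control, 4 of the 10 genes, Dll1, Jag2, Hey1 and Heyl, were higher on the siRNA arrays and 0 were lower at an adjusted p under 0.05 (limma, each gene by its brightest probe); of the 24526 genes and unnamed transcripts tested, 7.66% were called higher and 4.58% lower. Against the plasmid groups, Dll1, Jag2, Hey1 and Hes1 were higher, again 4 of 10 with 0 lower, beside 10.7% called higher and 8.3% lower over all genes. Between the plasmid groups and the negative control, Dll1, Hey1 and Heyl were higher and Hes1 and Notch1 lower, beside 13% called higher and 8.46% lower over all genes. Between the groups labelled pcDNA3.1-MEG3 and pcDNA3.1, 0 of 10 passed, beside 0.00814% of all genes. These comparisons share samples, so their values are set side by side and not counted as independent. The 2 samples of one group and those of the other did not overlap for 50.1% of all probes in the siRNA comparison with the negative control, 53.6% in that with the plasmid groups, 49.3% between the plasmid groups and the negative control and 68.7% between the plasmid groups, so groups that do not overlap are common on these arrays.

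**Figure D1:**
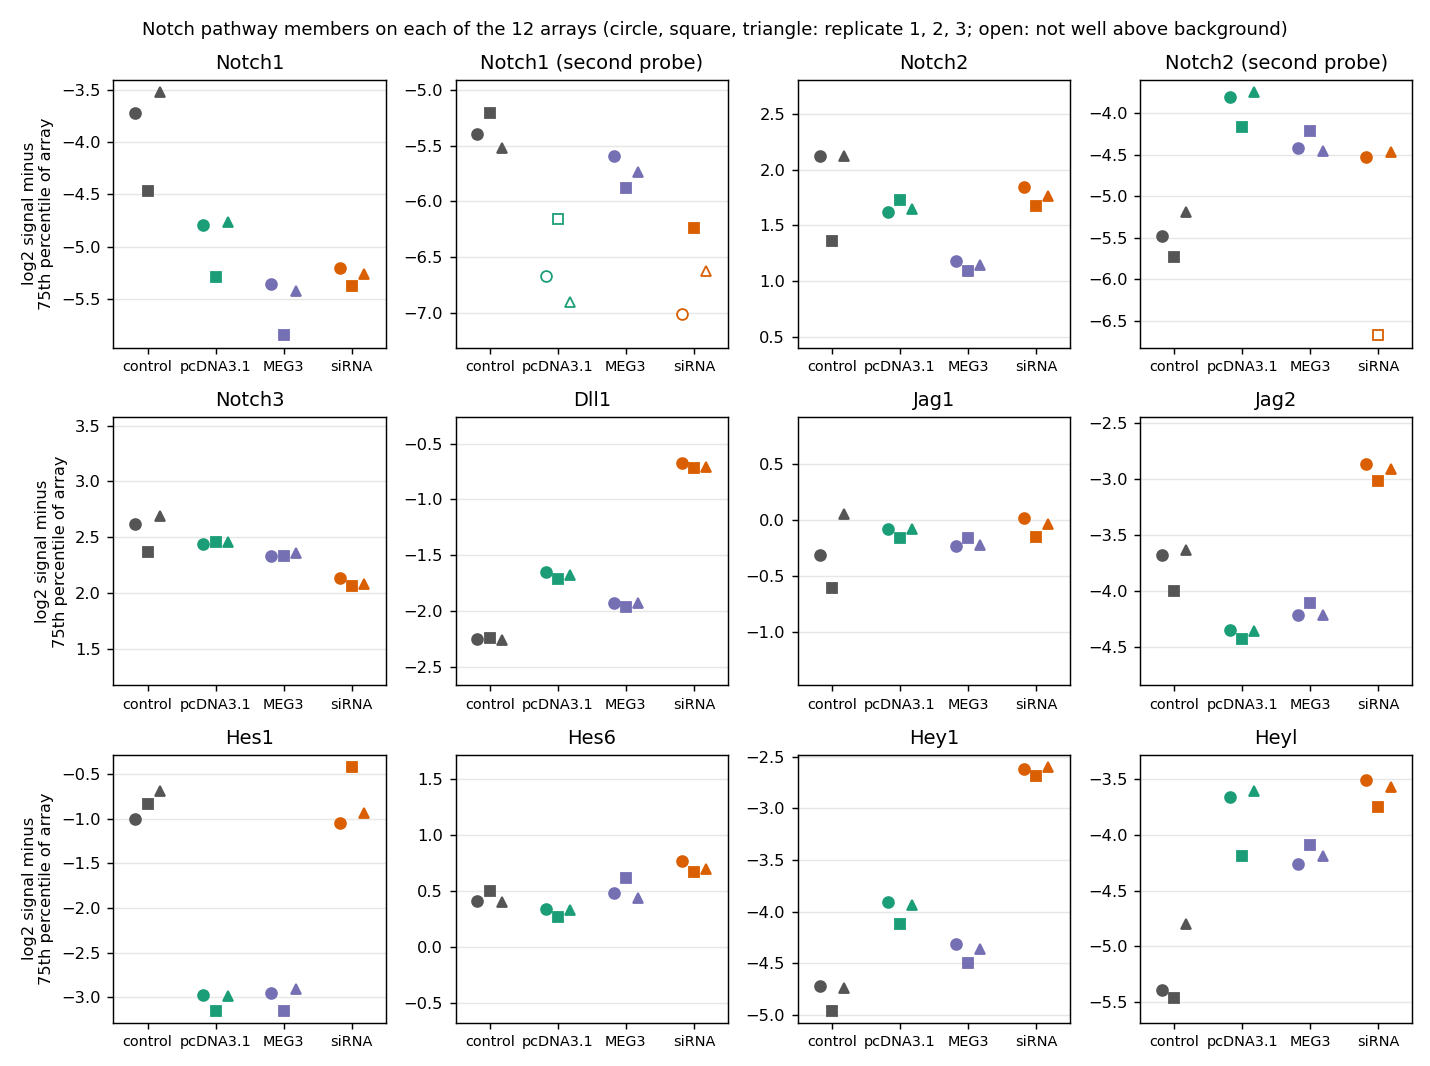
Level of each of the 12 probes on every array, as log2 signal minus the array's 75th percentile; each panel has its own range, and panels cannot be compared in level. The siRNA arrays stand above all others for Dll1, Jag2 and Hey1, and Hes1 splits the plasmid arrays from the negative control and siRNA arrays.

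Levels are given as the log2 of the processed signal minus the 75th percentile of the array, so 0 is the array's 75th percentile, and they compare groups within 1 probe only. Group values are means ± SD over 2 samples, and differences are in log2 units.

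Among the receptors, Notch1 was brightest on the negative control arrays. Its brighter probe (A_55_P2171897) read -3.72, -4.47 and -3.52 in replicates 1, 2 and 3 of the negative control. It read -4.79, -5.29 and -4.76 on the arrays labelled pcDNA3.1, and -5.36, -5.85 and -5.42 on those labelled pcDNA3.1-MEG3. The siRNA arrays gave -5.20, -5.38 and -5.26. All 9 plasmid and siRNA arrays lay below all 3 negative control arrays. The plasmid groups were lower than the negative control (difference -1.28, SE 0.30, adjusted p = 0.0323), a call lost under 6 of 22 alternatives and as small as -0.61 with normexp background correction. The siRNA difference of -1.26 (95% interval -2.10 to -0.42, adjusted p = 0.0681) did not pass, but did under 9 alternatives, without negative control replicate 2 among them (-1.68, adjusted p = 0.0235). It was -0.84 (adjusted p = 0.116) without negative control replicates 1 and 3 and -0.30 (adjusted p = 0.456) with normexp. The siRNA and plasmid groups differed by 0.02 (-0.70 to 0.75).

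The dimmer Notch1 probe (A_55_P2047168) was well above background on all negative control and pcDNA3.1-MEG3 arrays, on 1 of 3 siRNA arrays and on 0 of 3 arrays labelled pcDNA3.1. The negative control gave -5.40, -5.21 and -5.52, against -6.67, -6.16 and -6.90 in pcDNA3.1, -5.59, -5.88 and -5.74 in pcDNA3.1-MEG3 and -7.01, -6.24 and -6.62 with the siRNA. After scaling, the negative control arrays were above the rest, but only just above pcDNA3.1-MEG3 (-5.52 against -5.59). Raw signals of these groups overlapped (26.5 to 61.4 in the negative control, 26.7 to 33.3 in pcDNA3.1-MEG3). Neither this probe's siRNA difference (-1.19, limma adjusted p = 0.0535) nor its plasmid difference (-0.79, adjusted p = 0.0771) passed. The siRNA difference was 0.04 with normexp. Between the plasmid groups the brighter probe differed by -0.59, which did not pass, and no direction is given for the dimmer one, whose pcDNA3.1 readings were all too dim to count as well above background.

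Notch2 (A_52_P289213) was a bright receptor probe, and its 4 group means lay between 1.13 and 1.74. On the negative control arrays, the readings were 2.12, 1.36 and 2.12, where replicate 2 set the spread, and 1.84, 1.67 and 1.76 with the siRNA. The arrays labelled pcDNA3.1 gave 1.62, 1.73 and 1.65, and those labelled pcDNA3.1-MEG3 1.18, 1.09 and 1.15. The latter lay below every other array, although the difference between the plasmid groups, -0.55 (-1.18 to 0.07, adjusted p = 0.473), did not pass when all groups shared 1 spread. It did pass when only those 2 groups were fitted (adjusted p = 0.0366). Within the first scan of that slide the difference was -0.54. The siRNA arrays differed from the negative control by -0.01 (-0.63 to 0.62).

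The dimmer Notch2 probe (A_55_P1982793) did not follow the brighter one. It read -5.48, -5.73 and -5.19 in the negative control, -3.80, -4.16 and -3.74 in pcDNA3.1 and -4.42, -4.21 and -4.45 in pcDNA3.1-MEG3. On the siRNA arrays it read -4.53, -6.68 and -4.47, the second of them not well above background, and this 1 sample gave the group an SD of 1.54. None of its 4 differences passed, the largest being -1.45 (-2.87 to -0.02, adjusted p = 0.129) for the siRNA against the plasmid groups, and -0.36 (adjusted p = 0.404) without siRNA replicate 2.

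Notch3 (A_51_P220162), a receptor linked to quiescent satellite cells and to vascular smooth muscle, gave 2.62, 2.37 and 2.69 in the negative control and 2.14, 2.06 and 2.08 with the siRNA. The arrays labelled pcDNA3.1 gave 2.44, 2.46 and 2.46, and those labelled pcDNA3.1-MEG3 2.33, 2.33 and 2.36. The siRNA arrays were the lowest of the 12. Differences of -0.43 from the negative control (-0.79 to -0.07, adjusted p = 0.118) and -0.31 from the plasmid groups (-0.62 to 0.00, adjusted p = 0.135) did not pass with all 8 samples. Each passed under 6 alternatives. The first was -0.57 without negative control replicate 2. The negative control has no part in the second. Leaving out either of its samples there gave the same fit as fitting only the groups compared (-0.31, limma adjusted p = 0.0137).

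Dll1 (A_51_P306017), a Delta ligand made by differentiating myoblasts and known to signal to their neighbours, separated all 4 groups. It read -2.25, -2.24 and -2.26 in the negative control, -1.65, -1.71 and -1.68 in pcDNA3.1, -1.93, -1.96 and -1.93 in pcDNA3.1-MEG3, and -0.67, -0.72 and -0.71 with the siRNA. No group overlapped another, and every group's SD was 0.03 or less. The probe is printed at 10 spots on each array, whose SD within an array was 0.06 to 0.13, and the dimmest siRNA spot, at -0.97, lay above the brightest spot of any other array, at -1.53. Dll1 was 2.91-fold higher with the siRNA than in the negative control (1.54, SE 0.12, adjusted p = 0.0022) and 2.16-fold higher than in the plasmid groups (1.11, SE 0.11, adjusted p = 0.00221). The latter call held under all 23 alternatives, the former under 21 of 22, being lost when only those 2 groups were fitted (1.54, adjusted p = 0.0932).

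The plasmid groups were also higher than the negative control in Dll1, by 0.43 (SE 0.11, adjusted p = 0.0378). That difference was 0.01 when arrays were centred on their medians, a step that moved the median of all probes in this comparison from 0.18 to -0.24, and the call was lost under 10 of 22 alternatives. Relative to the median of all probes it was 0.25. Between the groups labelled pcDNA3.1-MEG3 and pcDNA3.1 the difference was -0.26 (-0.56 to 0.04, adjusted p = 0.476), with -0.27 within the first scan.

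Jag2 (A_51_P451338), a Jagged ligand, was highest with the siRNA and lowest in the plasmid groups. It read -2.86, -3.02 and -2.91 with the siRNA and -3.68, -4.00 and -3.63 in the negative control. Arrays labelled pcDNA3.1 gave -4.35, -4.43 and -4.36, and those labelled pcDNA3.1-MEG3 -4.22, -4.11 and -4.22. The siRNA arrays stood clear of all others. The plasmid arrays lay below the negative control, the nearest 2 arrays at -4.11 and -4.00. Jag2 was 2.51-fold higher with the siRNA than in the plasmid groups (1.33, SE 0.14, adjusted p = 0.00347), which held under all 23 alternatives. Against the negative control it was 1.84-fold higher (0.88, SE 0.17, adjusted p = 0.028), a call lost under 11 of 22 alternatives, with 0.62 in the authors' value table (adjusted p = 0.0515). The plasmid groups differed from the negative control by -0.45 (-0.80 to -0.09, adjusted p = 0.0767), which passed under 7 alternatives.

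Jag1 (A_52_P634090), the Jagged ligand also expressed in many non-muscle tissues, passed no test with all 8 samples. Its 12 arrays lay between -0.61 and 0.05, both extremes in the negative control, which read -0.31, -0.61 and 0.05, and the samples overlapped in every comparison except that between the plasmid groups. The siRNA differences were 0.29 (-0.18 to 0.76) from the negative control and 0.07 (-0.33 to 0.48) from the plasmid groups. The plasmid groups differed from the negative control by 0.22 (-0.19 to 0.62), and by -0.20 after median centring. Both differences from the negative control depended on which negative control sample was kept: without its replicates 1 and 3 the siRNA and plasmid differences from it were 0.53 (adjusted p = 0.0257) and 0.46 (adjusted p = 0.0276), and without its replicate 2 they were 0.05 (adjusted p = 0.759) and -0.02 (adjusted p = 0.846).

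**Figure D2:**
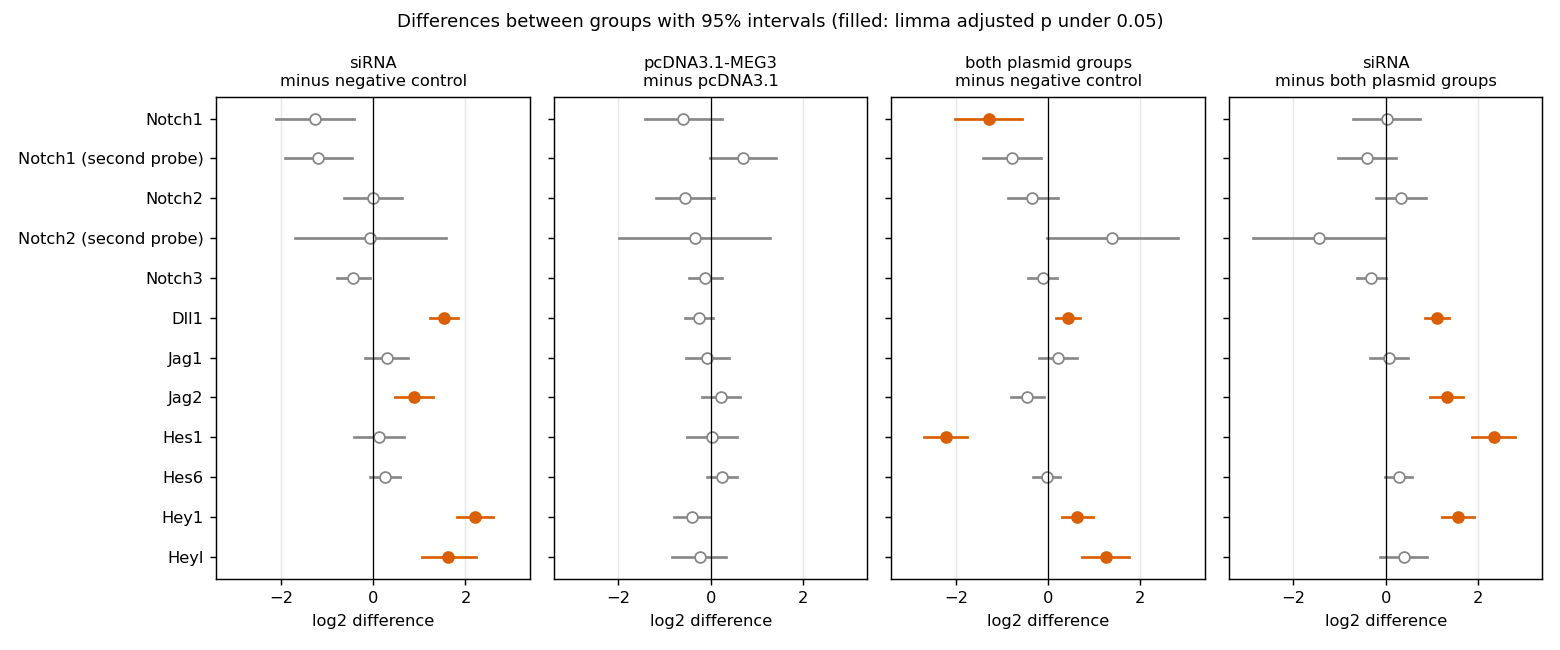
Log2 differences between groups for the 12 probes (points) with 95% intervals (lines), filled orange where limma's adjusted p was under 0.05. Dll1, Jag2 and Hey1 lie right of 0 in both siRNA comparisons, and Hes1 lies at -2.22 for the plasmid groups and 2.34 for the siRNA against them.

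Hes1 (A_55_P2046245), the repressor that is a classical Notch target and also answers to other signals, split the arrays into 2 levels. It read -1.0, -0.83 and -0.69 in the negative control and -1.05, -0.42 and -0.94 with the siRNA. It read -2.98, -3.15 and -2.99 on the arrays labelled pcDNA3.1 and -2.95, -3.15 and -2.91 on those labelled pcDNA3.1-MEG3. The 6 plasmid arrays had raw signals of 163 to 207, and the other 6 of 578 to 1270, with no overlap. Hes1 was 4.65-fold lower in the plasmid groups than in the negative control (log2 difference -2.22, SE 0.19, adjusted p = 0.00188) and 5.08-fold higher with the siRNA than in the plasmid groups (2.34, SE 0.19, adjusted p = 0.00133), and both calls held under every alternative run, 22 and 23. The siRNA and the negative control differed by 0.13 (-0.41 to 0.67, adjusted p = 0.76), and the sign turned after median centring (-0.06). The plasmid groups differed from each other by 0.03 (-0.52 to 0.57).

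Hes6 (A_51_P429366), a relative that opposes Hes1 and promotes myogenesis, read 0.77, 0.67 and 0.70 with the siRNA, above every other array. It read 0.41, 0.50 and 0.40 in the negative control, 0.34, 0.27 and 0.33 in pcDNA3.1 and 0.48, 0.62 and 0.44 in pcDNA3.1-MEG3. The siRNA differences, 0.25 from the negative control (-0.08 to 0.58, adjusted p = 0.287) and 0.28 from the plasmid groups (-0.01 to 0.57, adjusted p = 0.139), did not pass. The former passed under 1 of 22 alternatives and the latter under 5 of 23.

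Hey1 (A_51_P258409), a Notch-induced repressor, had the largest siRNA difference from the negative control among the 10 genes. It read -2.62, -2.69 and -2.60 with the siRNA, against -4.72, -4.96 and -4.74 in the negative control. Arrays labelled pcDNA3.1 gave -3.91, -4.12 and -3.94, and those labelled pcDNA3.1-MEG3 -4.31, -4.50 and -4.36. As for Dll1, no group overlapped another and the order was the same, siRNA, pcDNA3.1, pcDNA3.1-MEG3, negative control. Hey1 was a dim probe, with raw signals of 45.5 to 72.6 in the negative control and 193 to 197 with the siRNA. It was 4.59-fold higher with the siRNA than in the negative control (2.20, SE 0.16, adjusted p = 0.00165) and 2.97-fold higher than in the plasmid groups (1.57, SE 0.14, adjusted p = 0.00168).

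The Hey1 difference from the plasmid groups held under all 23 alternatives. That from the negative control ranged from 1.60 to 2.32 and missed only when those 2 groups were fitted alone (adjusted p = 0.0637). The plasmid groups were higher than the negative control by 0.63 (SE 0.14, adjusted p = 0.0275), or 0.45 relative to the median of all probes. That call was lost under 9 of 22 alternatives, with 0.21 after median centring. The group labelled pcDNA3.1-MEG3 read 0.40 below that labelled pcDNA3.1 (difference -0.40, -0.79 to -0.01, adjusted p = 0.415), with -0.39 within the first scan.

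Heyl (A_52_P337259), another Notch-induced member of the Hey family, was lowest in the negative control, and the sample ranges of neighbours among the other 3 groups overlapped. The negative control read -5.39, -5.46 and -4.80. The siRNA arrays read -3.51, -3.75 and -3.57, those labelled pcDNA3.1 -3.66, -4.19 and -3.61, and those labelled pcDNA3.1-MEG3 -4.26, -4.09 and -4.19. All 3 negative control arrays lay below the other 9. Heyl was also a dim probe, with raw signals of 30.6 to 51.5 in the negative control and 94.4 to 106 with the siRNA. It was 3.1-fold higher with the siRNA (1.63, SE 0.24, adjusted p = 0.014) and 2.37-fold higher in the plasmid groups (1.25, SE 0.21, adjusted p = 0.013) than in the negative control. The siRNA difference was 1.07 after normexp (adjusted p = 0.0319). The siRNA call was lost with only those 2 groups fitted (adjusted p = 0.117) and with hybridisation as a random block (adjusted p = 0.106), and the plasmid call under 4 of 22 alternatives, with 0.54 after normexp. The siRNA and plasmid groups differed by 0.39 (-0.12 to 0.89, adjusted p = 0.212). That difference passed under 3 of 23 alternatives, with 0.57 in the authors' value table (limma adjusted p = 0.043).

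Over the 10 genes, the median difference was 0.27 for the siRNA against the negative control, beside 0.06 over all genes. It was 0.36 beside -0.11 against the plasmid groups, -0.07 beside 0.18 for the plasmid groups against the negative control, and -0.18 beside -0.16 between the plasmid groups. Without negative control replicate 2, the siRNA differences from the negative control were 1.55 for Dll1, 0.70 for Jag2, 2.08 for Hey1 and 1.45 for Heyl, and all 4 calls remained.

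**Figure D3:**
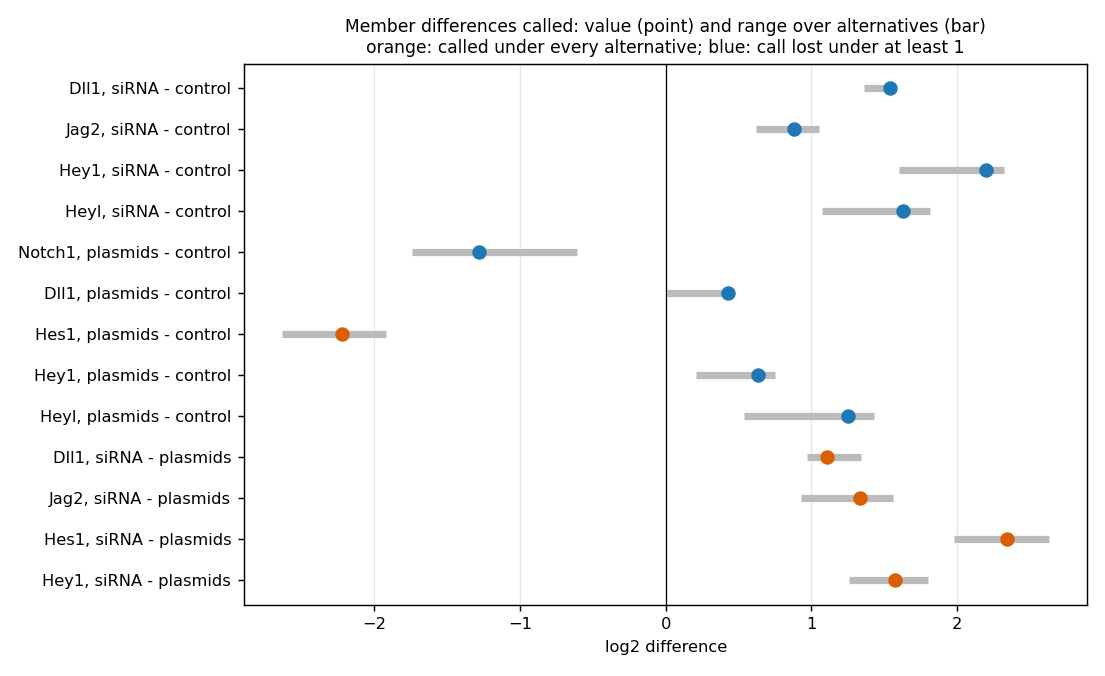
The 13 member differences called at an adjusted p under 0.05 (points, log2) with their range over the alternatives (grey bars). The 5 orange points, Hes1 in 2 comparisons and Dll1, Jag2 and Hey1 for the siRNA against the plasmid groups, were called under every alternative, and no bar crosses 0.

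The rest of the pathway was followed through 59 further genes, of which 56 have a probe and 51 were bright enough to test. In the siRNA comparison with the negative control, 5 of the 51 were higher and 0 lower, beside 7.66% and 4.58% of all genes. They were Neurl1a, an E3 ligase that acts on Notch ligands (2.21, SE 0.18, adjusted p = 0.00236), Dtx3l and Dtx4 of the Deltex ligase family (1.45 and 1.01), the repressor Bhlhe40 (1.05), and Mib1, the ligase that starts ligand endocytosis (0.55). The list's median was 0.07, beside 0.06 for all genes.

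Against the plasmid groups, 6 of the 51 were higher with the siRNA and 3 lower, beside 10.7% and 8.3% of all genes. Neurl1a was higher by 1.76, Adam10, the protease that makes the ligand-dependent cut in the receptor, by 0.75, the coactivator Maml3 by 0.64, Dtx4 by 0.63, the Numb-like gene Numbl by 0.59 and Bhlhe40 by 0.57. The Notch inhibitor Numb (-1.17), Dtx3l (-1.02) and the gamma-secretase subunit Aph1b (-0.81) were lower.

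Between the plasmid groups and the negative control, 7 were higher and 5 lower, beside 13% and 8.46% of all genes, so in none of these comparisons did the list's shares stand far from those of all genes. The 10 largest were Dtx3l (2.48), Dll3, a ligand that does not activate receptors on other cells (1.67), Numb (1.38), Maml2 (1.15), Rbpjl (0.97), Adam10 (-0.82), the receptor-processing protease Furin (-0.81), Numbl (-0.81), the corepressor Tle1 (-0.59) and Maml3 (-0.58). Adam10, Maml3, Numbl, Numb, Dtx3l and Bhlhe40 were called in both comparisons that involve the plasmid groups, which share those samples. Adam10, Maml3 and Numbl were lower in the plasmid groups in both, and Numb and Dtx3l higher in both. Bhlhe40 was higher in the plasmid groups than in the negative control and higher still with the siRNA. Between the plasmid groups 0 of 51 passed, beside 0.00814% of all genes. Rbpj itself, the DNA-binding partner of the receptors, read 2.94 to 3.09 as group means, and its largest difference was -0.12, between the plasmid groups.

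**Figure D4:**
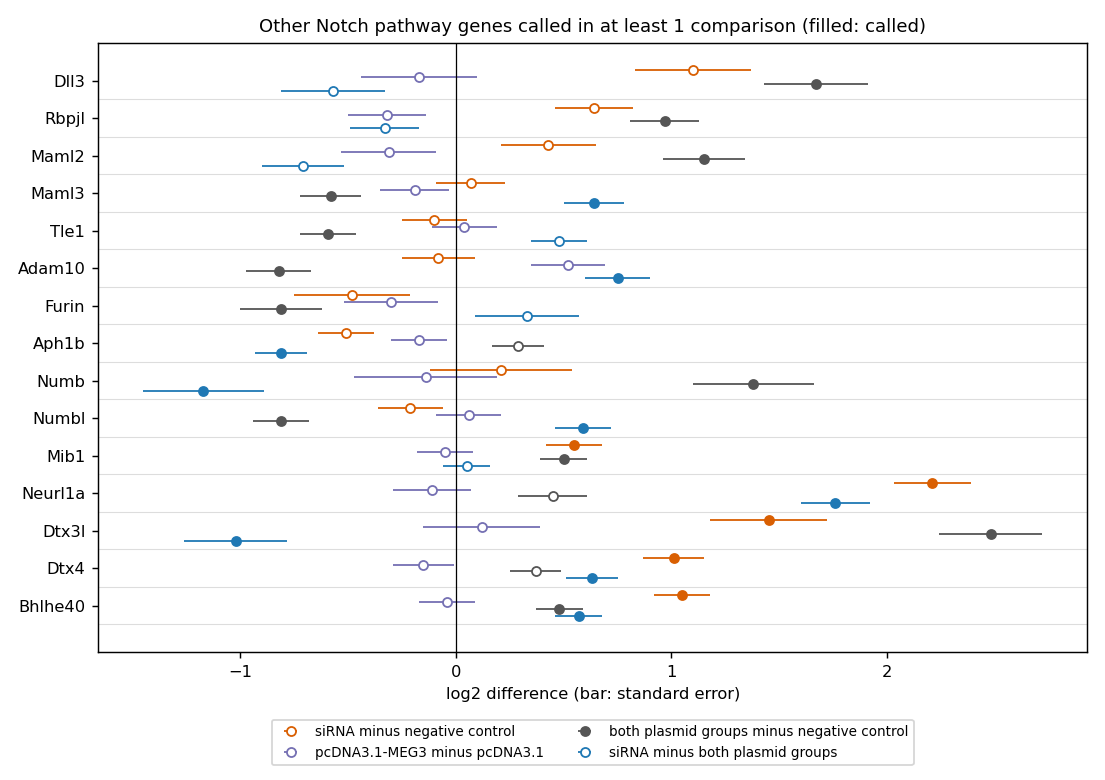
Log2 differences with standard errors for the 15 other pathway genes called in at least 1 of 4 comparisons, chosen for this plot by those calls; filled points were called. Neurl1a, Dtx4 and Bhlhe40 are right of 0 in both siRNA comparisons. Adam10, Maml3 and Numbl are left of 0 for the plasmid groups and right of 0 for the siRNA against them. Numb and Dtx3l are the reverse.

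Muscle differentiation genes differed in the same siRNA comparison in which Dll1, Jag2, Hey1 and Heyl rose. The 13 genes listed also include the progenitor factors Pax7 and Pax3, the early factor Myf5 and the cell cycle inhibitors Cdkn1a and Cdkn1c. Of the 13, 8 were higher and 1 lower with the siRNA than in the negative control, beside 7.66% and 4.58% of all genes. The myogenic factor Myog was higher by 3.46 (SE 0.15, limma adjusted p = 0.000437) and Myod1 by 2.29. The fusion genes Mymk and Mymx were higher by 2.92 and 3.80, and the contractile genes Myh3 and Actc1 by 7.05 and 7.15. Myf5 was lower (-2.87). Against the plasmid groups 9 were higher, Myf5 among them (1.76, limma adjusted p = 0.0127), and 0 lower, beside 10.7% and 8.3%. The 6 myotube markers, all but Tnnt3 also among these 13 genes, summed to 17.2 to 25.3 times the 75th percentile on the siRNA arrays. They summed to 0.685 to 0.772 in the negative control and 1.08 to 1.34 in the plasmid groups. Their sum, like Dll1 and Hey1, was thus highest with the siRNA. A marker whose spots were all outlying is left out of an array's sum. Actc1 counted as well above background on 2 of the 3 siRNA arrays, with signals of 10100 to 10800. The lower end of the siRNA range may therefore lack Actc1, and the range is not a spread of all 6 markers. The part of the differentiation genes in the Notch gene differences was not tested.

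Markers of other cells were mixed. All 6 myoblast markers were well above background on every negative control and siRNA array, and 5 of 6 on every plasmid array, where Myf5 read -6.62 against -2.0 in the negative control. They summed to 24 to 26.1 in the negative control, 22.2 to 25.7 in the plasmid groups and 55.1 to 57.2 with the siRNA. The sum was highest with the siRNA, as Dll1, Jag2 and Hey1 were. It mostly reflects Chrna1 and Itga7, the brightest of the 6, at 5.05 and 4.26 with the siRNA. Myod1 and Myf5 of this list are also among the differentiation genes above. With the siRNA, 4 of the 6 were higher and 1 lower than in the negative control and 5 higher and 0 lower than in the plasmid groups, where 0 were higher and 2 lower than in the negative control. The 5 endothelial markers, of a cell type that uses Dll1, Jag1, Hey1 and Heyl, summed to 0.905 to 0.956 in the negative control, 0.98 to 1.37 in the plasmid groups and 0.945 to 1.32 with the siRNA; 0 of the 4 tested were called in any of the 4 comparisons, and Esam was well above background on no plasmid or siRNA array. The 6 smooth muscle markers summed to 114 to 184 in the negative control, 73.8 to 102 in the plasmid groups and 145 to 156 with the siRNA. The plasmid groups were lowest, as for Hes1, with Myh11 and Rgs5 not well above background on any array. That sum mostly reflects Acta2, at 6.87 in the negative control against 4.76 for Pdgfrb, the next brightest. Acta2 itself was not called between the plasmid groups and the negative control (-0.68, limma adjusted p = 0.0679). Of the 4 tested, 2 were lower in the plasmid groups than in the negative control and 2 higher with the siRNA than in the plasmid groups. The 4 neural markers summed to 0.183 to 0.222, 0.262 to 0.297 and 1.12 to 1.18 in the same order of groups, Sox2 not well above background, and the 3 immune markers with a probe to 0.523 to 0.585, 0.355 to 0.744 and 0.845 to 0.885. Of 3 neural markers tested, 2 were higher with the siRNA and 2 in the plasmid groups than in the negative control, and 3 were higher with the siRNA than in the plasmid groups. Of the 3 immune markers, 1 was higher in each siRNA comparison. The 4 epithelial markers were not well above background on the negative control and plasmid arrays, nor were Cdh1, Epcam and Krt18 on the siRNA arrays, and they summed to at most 0.035. The part of these cells in the member differences was not tested.

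The genes whose 8 sample values were most like those of a called member, after each gene was centred and scaled to unit SD, were found among 16313 candidates. For Dll1 they were Mrc1, Hsd11b1 and Ppp2r2b, with root mean square differences of 0.0729, 0.0903 and 0.0969 SD. For Hey1 they were B4galt4, Mrc1 and Nhej1, at 0.0904 to 0.0956 SD, so Mrc1 was among the nearest to both. Hes1 was closest to Tmem100, Ubtf and Cep170b (0.107 to 0.115 SD), Heyl to Tceal5, Cmah and AW549542 (0.123 to 0.144 SD), Jag2 to Gimap8, Rnase6 and Tyms-ps (0.134 to 0.171 SD) and Notch1 to Akap8, Gm4832 and Ccl27a (0.195 to 0.238 SD).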

How the data were processed

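C2C12 RNA was measured on single-colour (Cy3) arrays, and the authors deposited 12 files of scanner output from Agilent Feature Extraction 11.0.1.1, per the file headers. With the slides as given by the earlier report, they cover 9 slide positions. The processed signal intensity is background-subtracted and detrended within an array, per the file headers. Here it was put on the log2 scale, spots of a probe were averaged without control and outlying spots, and each array's 75th percentile was subtracted. A probe was kept where 1 group or more had it well above background on all its arrays (29607 of 39429). Differences were tested with limma 3.58.1 in R 4.3.3, replicates 1 and 3 averaged, all 4 groups sharing 1 spread (4 residual degrees of freedom), with Benjamini-Hochberg adjustment over all probes kept, two-sided. The authors' deposited value table, positive intensities whose scaling is not stated, with column medians of 276 to 277, was an alternative, as were other normalizations, filters, units of replication and left-out samples. The planned normexp correction used median spot signals, since the scanner files used here hold no mean signal. A gene was described through its brightest probe. All member probes are named, as are the 3 genes of most similar pattern. At most 10 called genes of the pathway list are given with values per comparison. Members and lists were chosen with earlier results of these data known. The number of arrays limits the precision. Replicate numbers did not pair samples: deviations correlated at -0.114 to 0.0129 between groups.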

Additional observations from a re-analysis of the deposited data

How the results depend on the processing

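Of 1052 member differences recomputed under an alternative, 911 kept their direction and their side of the threshold, 44 lost a call, 69 gained one and 28 changed sign, 0 of them among the called differences. The sign changes outside left-out samples were, for the siRNA against the negative control, Hes1 with median centring (-0.06), the dimmer Notch1 probe with normexp (0.04), the dimmer Notch2 probe with normexp (0.37) and with 12 arrays as samples (0.24), and Notch2 with replicates 1 and 2 alone (0.01). Between the plasmid groups it was Hes1 with normexp (-0.01). For the plasmid groups against the negative control they were Jag1 with median centring (-0.20) and Notch3 with normexp (0.01). For the siRNA against the plasmid groups they were the dimmer Notch1 probe with quantile normalization (0.13), normexp (0.19) and the authors' value table (0.11), and Notch1 with 12 arrays as samples (-0.03).

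With 1 of the 8 samples left out in turn, the sign also turned for these uncalled differences. For the siRNA against the negative control they ranged from -0.38 to 0.37 for Notch2, -1.15 to 1.03 for its dimmer probe and -0.16 to 0.42 for Hes1. Between the plasmid groups they ranged from -0.08 to 0.14 for Hes1 and -0.52 to 0.03 for Heyl. For the plasmid groups against the negative control they ranged from -0.71 to 0.04 for Notch2, -0.26 to 0.02 for Notch3, -0.02 to 0.46 for Jag1 and -0.08 to 0.01 for Hes6. For the siRNA against the plasmid groups, Notch1 ranged from -0.11 to 0.15.

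The siRNA comparison with the negative control called 3555 probes, and 2263 with no filter on dim probes, 11926 with 12 arrays as samples, 5808 with 9 samples (negative control replicates 1 and 3 apart), 188 with only those 2 groups fitted and 1179 to 9249 with a sample left out. The comparison of the plasmid groups called 2 (3483 at an unadjusted p under 0.05), and 22 with normexp, 25 with probes well above background on all 12 arrays, 4379 with 12 arrays as samples, 485 with hybridisation as a random block, 25 with 9 samples, 3694 fitted alone, 5 with an intensity trend and 0 to 3928 with a sample left out. The plasmid groups against the negative control called 6252, and 15569, 10072 and 9537 with 12 arrays as samples, 9 samples and only those groups, and 1925 to 11394 with a sample left out. The siRNA against the plasmid groups called 5700, and 15411 with 12 arrays as samples, 11730 with only those groups and 1982 to 11730 with a sample left out. A fit with the replicate number as a block called 2101, 1, 4685 and 4162 probes in the same order, and a crossed pairing, added after seeing the data, 4314 in the last; the block ended the calls of Jag2 for the siRNA (0.88, adjusted p = 0.0515) and Dll1 for the plasmid groups (0.43, adjusted p = 0.0726) against the negative control. The share of calls that were higher moved with scaling: 60.6% became 38.8% with median centring for the siRNA against the negative control, 60.5% became 17.6% (45.2% with quantile normalization) for the plasmid groups, and 53.9% became 77% for the siRNA against the plasmid groups. The cause of these moves was not tested. The second Notch1 and Notch2 probes were not well above background on every array.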
